A study of Mus musculus with 18 samples.

Results

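The comparison set brain endothelial preparations that had lost Pdcd10 in room air directly against preparations with intact Pdcd10 after hypoxia, to find which transcripts tell the 2 states apart and which stand at the same level in both. Its members are the count columns of normoxia KO replicates 1, 2, 4, 5 and 6 and of hypoxia flox replicates 2 to 5, which make 9 of the 18 libraries of the series. All mice carried floxed Pdcd10 alleles (Pdcd10 fl/fl) and the astrocyte reporter Aldh1l1-EGFP/Rpl10a. KO mice also carried Slco1c1-iCreERT2, a tamoxifen-regulated Cre active in brain endothelium. An injection of 4-hydroxytamoxifen (50 µg) at postnatal day 1 was recorded for both KO and flox libraries. Flox mice were littermates without Cre, and uninjected Cre carriers also served as controls, without a statement of which libraries came from them. Cells were isolated at postnatal day 57, the KO mice from 21% oxygen and the flox mice after 7 days in 12% oxygen. The 4 normoxia flox libraries place each state against the same control. Labels number the libraries without saying that each came from a separate animal, so p values measure the spread between these libraries. In such bulk preparations, fewer cells of a type and less RNA per cell cannot be told apart.

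Pdcd10 encodes CCM3, an adaptor protein of the cerebral cavernous malformation complex that also binds GCKIII and STRIPAK kinases. Its loss in endothelium gives dilated, leaky brain vessels, and released MEKK3 signalling raises the transcription factors KLF2 and KLF4. Low oxygen stabilises hypoxia-inducible factor (HIF), which EGLN prolyl hydroxylases otherwise mark for degradation, and HIF drives genes of glycolysis, angiogenesis and oxygen sensing. Chronic mild hypoxia is known to make brain capillaries sprout and their endothelial cells divide.

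Promoters are shown first for 5 mitotic genes and 2 HIF targets. Of 22 mitotic genes 19 were lower in normoxia KO, while Cdc20 was alike in both states, and both HIF targets shown were higher. Each sequence is the RefSeq window of 250 bases before the annotated start (GRCm38.p6), 5′ to 3′ on the gene's strand. In the 5 mitotic genes, capitals mark the CHR element (cell cycle genes homology region, TTTGAA) and the CCAAT box, each also read on the other strand, where they appear as TTCAAA and ATTGG.
Kif11 (chr19:37376132-37376381, plus strand): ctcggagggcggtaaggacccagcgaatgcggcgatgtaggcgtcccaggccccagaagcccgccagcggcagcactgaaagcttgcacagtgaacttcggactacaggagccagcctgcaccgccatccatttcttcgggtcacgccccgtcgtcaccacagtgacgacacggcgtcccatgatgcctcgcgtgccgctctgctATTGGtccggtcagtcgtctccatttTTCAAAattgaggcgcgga
Kif15 (chr9:122950831-122951080, plus strand): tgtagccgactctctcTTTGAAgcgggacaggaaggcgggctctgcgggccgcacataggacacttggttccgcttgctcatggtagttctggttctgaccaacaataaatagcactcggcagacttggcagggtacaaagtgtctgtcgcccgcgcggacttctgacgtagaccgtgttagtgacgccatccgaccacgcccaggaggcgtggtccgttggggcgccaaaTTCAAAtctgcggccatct
Bub1 (chr2:127831860-127832109, minus strand): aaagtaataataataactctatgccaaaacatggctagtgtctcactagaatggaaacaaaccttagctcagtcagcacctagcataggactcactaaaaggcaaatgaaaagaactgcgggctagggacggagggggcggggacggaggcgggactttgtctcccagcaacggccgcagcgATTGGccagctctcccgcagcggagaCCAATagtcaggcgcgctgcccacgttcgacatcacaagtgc
Bub1b (chr2:118597961-118598210, plus strand): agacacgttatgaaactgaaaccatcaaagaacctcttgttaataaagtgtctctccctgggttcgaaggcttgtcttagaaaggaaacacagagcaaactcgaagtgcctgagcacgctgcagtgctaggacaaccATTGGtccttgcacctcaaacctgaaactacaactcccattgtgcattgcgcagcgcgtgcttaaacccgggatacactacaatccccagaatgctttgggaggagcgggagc
Cdc20 (chr4:118437344-118437593, minus strand): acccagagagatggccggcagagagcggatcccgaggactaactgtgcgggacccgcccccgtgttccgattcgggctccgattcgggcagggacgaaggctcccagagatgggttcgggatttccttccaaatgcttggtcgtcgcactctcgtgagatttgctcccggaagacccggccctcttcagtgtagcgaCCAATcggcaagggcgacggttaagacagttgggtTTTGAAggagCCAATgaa
In the 2 HIF targets below, capitals mark the HIF core ACGTG. The other form of the core, GCGTG, was also searched on both strands and has no match in either window. ACGTG overlaps the E-box CACGTG, which other factors bind.
Egln3 (chr12:54203875-54204124, minus strand): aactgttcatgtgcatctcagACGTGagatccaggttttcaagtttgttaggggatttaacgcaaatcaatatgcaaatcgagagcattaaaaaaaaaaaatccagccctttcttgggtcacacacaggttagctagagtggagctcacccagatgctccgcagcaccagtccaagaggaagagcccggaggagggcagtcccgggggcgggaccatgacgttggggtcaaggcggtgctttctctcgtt
Slc16a3 (chr11:120948817-120949066, plus strand): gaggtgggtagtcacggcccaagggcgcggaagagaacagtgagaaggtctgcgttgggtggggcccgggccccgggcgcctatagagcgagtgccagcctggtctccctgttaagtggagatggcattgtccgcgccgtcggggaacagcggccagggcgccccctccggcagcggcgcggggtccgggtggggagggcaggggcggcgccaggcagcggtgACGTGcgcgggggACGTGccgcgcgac
Of the 22 mitotic genes tested, 18 matched a promoter in the RefSeq table. A CCAAT box was found in 16 of these 18 (88.9%), against 36.2% of the 11699 promoters of genes tested and 34.5% of all 27025 promoters. TTTGAA was found in 7 of the 18 (38.9%), against 10.9% and 16.3%. The windows of Kif11, Kif15 and Cdc20 hold TTTGAA within 19 bases of the start, on either strand. Among HIF targets, 25 of 35 matched, and ACGTG was found in 12 of them (48%), against 21% of the promoters of genes tested and 16.6% of all promoters. GCGTG was found in 17 of the 25 (68%), against 43.4% and 28.2%, and either core in 21 (84%), against 54.4% and 38.6%. Mitotic promoters held either core in 13 of 18 (72.2%). These matches describe the letters of the windows and are not evidence of binding.

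Normoxia KO libraries held 20.6 to 31.2 M counts (M stands for 1000000) and hypoxia flox libraries 18.7 to 23.2 M. Endothelial markers were abundant in all 9: the summed level of the 12 markers was 15181 to 16901 CPM (counts per 1000000 counts of the library) in normoxia KO and 16505 to 19834 CPM in hypoxia flox. Of these 12, 7 were alike by the interval rule given below. In normoxia KO 2 were lower (Flt1 and Slco1a4) and none was higher, 16.7% called against 18.9% of all genes. Normoxia KO 4 stood apart, with 1536 CPM summed over neuron markers against at most 103 CPM in the other 8 libraries. It also held both Xist (306 CPM), the RNA that silences an X chromosome, and Y-linked Ddx3y (9.68 CPM). Xist was at 786 and 747 CPM in normoxia KO 5 and 6, whose Ddx3y was 0, and at most 1.72 CPM in normoxia KO 1 and 2 and all hypoxia flox libraries, whose Ddx3y was 135 CPM or more. Immediate early genes, which respond to tissue dissociation within minutes, summed to between 36313 and 38501 CPM in normoxia KO 1, 2 and 5 and to 24858 CPM in hypoxia flox 2, but to 9879 CPM or less in the other 5. Of the 21 immediate early genes none was called by edgeR or DESeq2 and 1 reached an unadjusted p under 0.05 in edgeR, with a median difference of 1.16. The part of these library differences in the results below was not tested beyond the subsets of libraries given.

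Over the 17531 genes tested, 3318 (18.9%) differed between normoxia KO and hypoxia flox at an adjusted p under 0.05. Of these, 1597 (9.11% of all tested) were higher and 1721 (9.82%) lower in normoxia KO, and 574 (3.27%) and 706 (4.03%) differed by at least 2-fold. Differences are log2 fold changes of normoxia KO minus hypoxia flox ± SE, so that a positive value is higher in normoxia KO, and adjusted p values come from edgeR's quasi-likelihood test with Benjamini-Hochberg adjustment over all genes tested. The median difference over all genes was 0.05. On the deposited RPKM values the median was -0.09, and 27.8% of calls were higher, against 48.1% here. A gene was called alike when the 95% interval of its difference lay wholly within -0.5 and 0.5, a factor of 1.41 in either direction. This held for 5515 genes (31.5%), of which 318 (1.81% of all tested) also passed the test, with a difference that was small but above the spread. The other 9016 genes (51.4%) were neither called nor shown to be alike. In simulated counts, 31.6% of genes without any change met the alike rule. The share alike therefore depends on precision too, and the share over all genes is no matched background for a list. For 3621 genes (20.7%) the libraries of the groups did not overlap. With only the libraries of 1 sex pattern in these groups (normoxia KO 1 and 2 against hypoxia flox 2 to 5), 1333 genes were called. With only those low in immediate early genes (normoxia KO 4 and 6 against hypoxia flox 3 to 5), 1790 were. In both fits all normoxia flox and hypoxia KO libraries stayed in, whatever their pattern. Of the 132 named genes called in all libraries, 97 were called in the first subset and 98 in the second, and all 132 kept their sign in both. Both subsets reuse these libraries, and a gene without overlap between the groups can hardly change its sign in a subset. The kept signs are therefore no independent test.

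**Figure D1:**
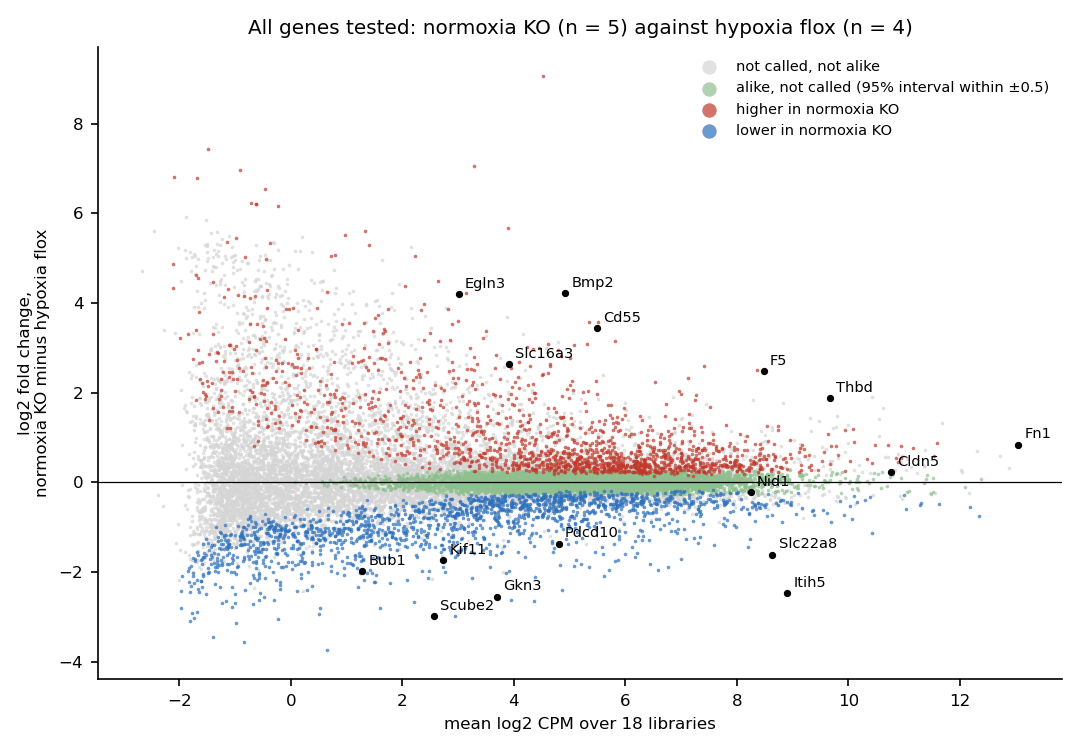
Each point is 1 of the 17531 genes tested, with its mean log2 CPM over all 18 libraries on the x axis and its log2 fold change, normoxia KO (n = 5) minus hypoxia flox (n = 4), on the y axis; red and blue points passed the test as higher or lower, green points were alike and not called, and grey points were neither. Egln3 (4.21) and Bmp2 (4.22) lie far above 0 and Scube2 (-2.99) and Itih5 (-2.47) below it, and the topmost red point is Xist at 9.07.

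Against their shared normoxia flox controls, normoxia KO libraries differed in 2905 genes (16.6%), 1673 higher (9.54%) and 1232 lower (7.03%), and hypoxia flox libraries in 492 (2.81%), 411 higher (2.34%) and 81 lower (0.462%). These last 2 comparisons use the same 4 control libraries, so they are given side by side and not correlated.

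Pdcd10 checks the labels. Its levels were 19.97, 19.9, 16.3, 20.1 and 16.7 CPM in normoxia KO replicates 1, 2, 4, 5 and 6 and 37.7, 49, 44.4 and 60.9 CPM in hypoxia flox replicates 2 to 5, and all values below are given in this order. Every KO library lay below every hypoxia flox library, and the difference was -1.37 ± 0.14 (adjusted p = 7.2e-06). Among 14 genes of the malformation complex and its partner kinases, 4 were higher and 1, Pdcd10, was lower (35.7% called, against 18.9% of all genes), and 6 were alike. Heg1, the receptor that anchors the complex at the membrane, was higher in normoxia KO by 0.83 ± 0.12 (adjusted p = 0.00015), and Stk24, a GCKIII kinase that binds CCM3, by 0.39 ± 0.09 (adjusted p = 0.0051). Ccm2, the scaffold that holds MEKK3, was both called (0.27 ± 0.06, adjusted p = 0.00795) and alike.

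Of 18 genes of the MEKK3-KLF axis, 3 were higher, none was lower and 6 were alike. The called share of 16.7% was near the 18.9% of all genes. Klf2 stood at 1895, 1707, 711, 1706 and 809.5 CPM in normoxia KO and 789.6, 568, 591 and 475 CPM in hypoxia flox. The groups overlapped, since normoxia KO 4 lay below hypoxia flox 2, and the difference was 1.17 ± 0.35 (adjusted p = 0.0276). The call was lost without any 1 of normoxia KO 1, 2 and 5 and hypoxia flox 3, 4 and 5 (adjusted p up to 0.0935). Klf2 was high in the same 3 KO libraries that were high in immediate early genes. On the KO side the low libraries were only normoxia KO 4, which stood apart for neuron markers, and normoxia KO 6. With only the low libraries the Klf2 difference was 0.45 ± 0.39 (adjusted p = 0.451). Over 22 alternative settings its call was kept in 13 and lost in 9. A fit of all libraries with a term for immediate early genes was among those that kept it. Klf4 differed by 1.41 ± 0.62 (adjusted p = 0.13) and by 0.12 ± 0.69 among the low libraries, so no difference was detected for it. Thbd, which encodes the anticoagulant receptor thrombomodulin and is a target of both factors, did not follow that pattern: its levels were 1402, 1429, 1445, 1565 and 1700.3 CPM against 515, 362, 448 and 306 CPM. All 5 KO libraries exceeded the highest hypoxia flox library, and the difference was 1.89 ± 0.13 (adjusted p = 2.62e-07), a 3.7-fold excess.

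Several oxygen sensor and HIF genes were higher in the KO preparations from room air than in the flox preparations from low oxygen. Among 11 HIF subunits and oxygen sensors, 4 were higher and 1 was lower (45.5% called, against 18.9% of all genes). Of the 11, 4 were alike (against 31.5% of all genes). Egln3, a prolyl hydroxylase that is itself a HIF target, stood at 30.2, 32.3, 30.7, 27 and 34.7 CPM in normoxia KO and 2.3, 1.6, 1.14 and 1.62 CPM in hypoxia flox. The groups were far apart, with a difference of 4.21 ± 0.49 (adjusted p = 2.83e-05), or 18.5-fold. Normoxia flox libraries had 1.2, 0.609, 0.304 and 4.61 CPM, so hypoxia flox lay within the control range (hypoxia minus normoxia, -0.03 ± 0.52, adjusted p = 0.99), although without normoxia flox 4, which carries neural RNA, that difference was 1.27 ± 0.31 (adjusted p = 0.0392). The related hydroxylase genes Egln2 (0.48 ± 0.11) and Egln1 (0.25 ± 0.07) were also called higher, Egln1 within the margin for alike and no longer called without hypoxia flox 2 (0.19 ± 0.07, adjusted p = 0.0618). Hif1a, the HIF-1 alpha subunit, was higher by 0.77 ± 0.12 (adjusted p = 0.000341), whereas Epas1, the HIF-2 alpha subunit, was lower (-0.48 ± 0.13, adjusted p = 0.0156, and -0.43 ± 0.14 with adjusted p = 0.0549 without hypoxia flox 4).

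Of 35 HIF targets tested, 11 were higher, 3 were lower and 7 were alike (against 31.5% of all genes). The median difference was 0.39, against 0.05 over all genes. The called share was 40%, against 18.9% of all genes. Slc16a3, the lactate exporter MCT4, was at 35.4, 38, 27.8, 39 and 28.3 CPM in normoxia KO and 7.5, 5.02, 5.1 and 4.02 CPM in hypoxia flox. Every KO library exceeded every hypoxia flox library, and the difference was 2.64 ± 0.34 (adjusted p = 6.35e-05). Ankrd37, an ankyrin repeat protein gene, was higher by 1.78 ± 0.39 (adjusted p = 0.00442), Mxi1, an antagonist of MYC, by 0.73 ± 0.10 (adjusted p = 8.92e-05) and Higd1a, a mitochondrial protein gene, by 0.53 ± 0.10 (adjusted p = 0.0015). Pdk1, which limits pyruvate entry into mitochondria, was raised in both states, by 1.12 ± 0.11 in normoxia KO and 0.56 ± 0.11 in hypoxia flox, and remained higher in normoxia KO by 0.56 ± 0.11 (adjusted p = 0.00154). Lower members were Angptl4, a secreted lipoprotein lipase inhibitor (-1.03 ± 0.19, adjusted p = 0.00155), and Lox, which cross-links collagen (-0.70 ± 0.22, adjusted p = 0.037). The third, Stc2, was lost without any 1 of normoxia KO 1, 2, 4 and 5 and hypoxia flox 2 and 3 (adjusted p up to 0.153). Vegfa, the main endothelial growth factor, was at 33.3, 34.4, 23.2, 39.3 and 22.1 CPM against 28.4, 20.8, 7.23 and 6.37 CPM, groups that overlapped through hypoxia flox 2, with a difference of 0.95 ± 0.42 (adjusted p = 0.132). Without hypoxia flox 2 it was 1.39 ± 0.43 (adjusted p = 0.0394). Slc2a1, the glucose transporter of the blood-brain barrier, did not pass (0.24 ± 0.14, 95% interval -0.05 to 0.53). With libraries of 1 sex pattern only, 8 of the 35 HIF targets were called higher and 1 lower (median 0.43), when 1333 genes were called in all. Among libraries low in immediate early genes 5 were higher and 1 lower (median 0.19), when 1790 genes were called in all. Ankrd37, Pdk1 and Angptl4 lost their calls among these low libraries (adjusted p = 0.0792, 0.0562 and 0.0837).

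Glycolysis genes were also higher where called. Of 17 enzymes, 7 were higher and none was lower (41.2% called, against 18.9% of all genes). Of the 17, 3 were alike (against 31.5% of all genes), and the list median was 0.61. Hk1, the first enzyme of the pathway, stood at 235, 246, 284, 235 and 253 CPM in normoxia KO and 152, 159, 154 and 152 CPM in hypoxia flox, a difference of 0.70 ± 0.10 (adjusted p = 0.000103) without overlap. The phosphofructokinase genes Pfkp and Pfkl were higher by 0.70 ± 0.16 (adjusted p = 0.0056) and 0.57 ± 0.11 (adjusted p = 0.00204). Tpi1, triosephosphate isomerase, was higher by 0.73 ± 0.16, with its highest value in normoxia KO 4, and by 0.61 ± 0.15 without that library (adjusted p = 0.0108). Eno2 (3.98 ± 1.90) and Aldoc (3.45 ± 1.61), forms of neurons and astrocytes, did not pass. Without normoxia KO 4, 4 of the 17 were called, all higher, when 3080 genes were called in all. Of 23 respiratory chain genes 1 was called (4.35%, against 18.9% of all genes) and 10 were alike (against 31.5% of all genes).

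**Figure D2:**
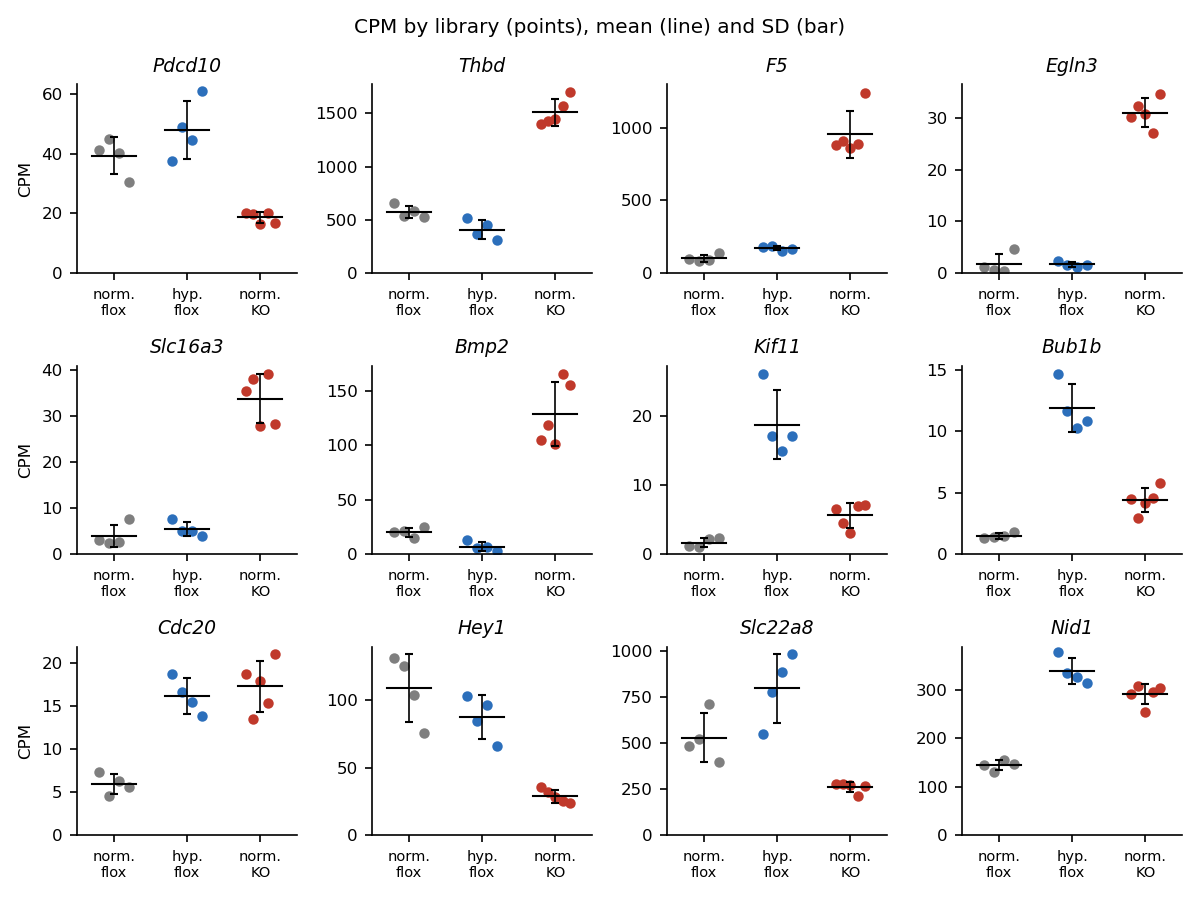
Each panel plots the CPM of 1 gene by library (points) in normoxia flox (grey, n = 4), hypoxia flox (blue, n = 4) and normoxia KO (red, n = 5), with the mean as a line and the SD as a bar, on linear axes that start at 0. Thbd, F5, Egln3, Slc16a3 and Bmp2 separate normoxia KO from both flox groups, Kif11 and Bub1b are highest in hypoxia flox, and Cdc20 and Nid1 stand above normoxia flox in both states.

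Coagulation genes were mostly higher in normoxia KO where called. Of 22 genes for coagulation and fibrinolysis, 9 were higher, 1 was lower and 1 was alike (against 31.5% of all genes). The called share was 45.5%, against 18.9% of all genes, and the median was 0.80. F5, coagulation factor V, stood at 878, 904, 859, 888 and 1237 CPM in normoxia KO and 177, 188, 154 and 165 CPM in hypoxia flox, without overlap (2.48 ± 0.18, adjusted p = 2.62e-07, 5.57-fold). Hypoxia alone had also raised F5 over normoxia flox, by 0.76 ± 0.17 (adjusted p = 0.0207), and Pdcd10 loss by 3.24 ± 0.18 (adjusted p = 2.53e-08). Tfpi, whose product blocks factor Xa and tissue factor, was higher by 1.39 ± 0.10 (adjusted p = 3.59e-07), and Procr, the endothelial protein C receptor, was at 59.6, 64.3, 56.5, 78.4 and 64.6 CPM against 33.7, 21.5, 23.3 and 23.9 CPM (1.34 ± 0.18, adjusted p = 9.45e-05). S100a10 and Anxa2, which form a surface receptor for plasminogen, were higher by 2.25 ± 0.24 and 1.16 ± 0.11 (adjusted p = 9.07e-06 and 4.74e-06). Gas6, a vitamin K-dependent ligand, was the member that was lower (-1.21 ± 0.18, adjusted p = 0.000185).

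Cell division genes differed in the other direction. Of 22 mitotic genes, 19 were lower in normoxia KO, none was higher and 1 was alike, with a median of -1.35. The called share was 86.4%, against 18.9% of all genes. Both states stood above normoxia flox, with list medians of 2.07 for normoxia KO and 3.45 for hypoxia flox, so that normoxia KO lay between control and hypoxia. Summed CPM of the list ran from 134 to 244 in normoxia KO, from 367 to 603 in hypoxia flox and from 44.5 to 68.7 in normoxia flox.
Bub1, a kinase of the spindle checkpoint, was at 2.24, 1.75, 1.49, 2.08 and 2.51 CPM in normoxia KO and 9.14, 8.76, 7.13 and 6.91 CPM in hypoxia flox. The libraries did not overlap, and the difference was -1.98 ± 0.28 (adjusted p = 0.000148). Its partner Bub1b was lower (-1.43 ± 0.21, adjusted p = 0.000231). Kif11, the kinesin that pushes spindle poles apart, stood at 6.57, 4.44, 3.01, 6.96 and 7.17 CPM against 26.2, 17.1, 15 and 17.1 CPM, a difference of -1.74 ± 0.30 (adjusted p = 0.000846). Mki67, which marks dividing cells, was at 35.1, 23.1, 13.1, 30.6 and 42.9 CPM against 148, 106, 83.2 and 76.8 CPM (-1.84 ± 0.40, adjusted p = 0.00488). Kif15, a kinesin of the same step as Kif11, was lower (-2.21 ± 0.30, adjusted p = 0.000102). Gas2l3, a cytoskeletal linker of cytokinesis, rose with hypoxia by 2.32 ± 0.27 (adjusted p = 5.1e-05) and was at -0.35 ± 0.26 after Pdcd10 loss, which did not pass. The direct difference in Gas2l3 was -2.67 ± 0.25 (adjusted p = 3.94e-06).
With libraries of 1 sex pattern only, 13 of the 22 mitotic genes were called, all lower (median -1.59), when 1333 genes were called in all. Among libraries low in immediate early genes only 3 of the 22 were called, all lower (median -1.08), when 1790 genes were called in all.

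Cdc20, the activator of the anaphase-promoting complex, departed from this pattern. Its levels were 18.8, 13.5, 17.9, 15.4 and 21.1 CPM in normoxia KO and 18.7, 16.6, 15.5 and 13.8 CPM in hypoxia flox, with full overlap and a difference of 0.10 ± 0.16 (95% interval -0.23 to 0.43). It stood above normoxia flox (7.31, 4.59, 6.29 and 5.59 CPM) by 1.55 ± 0.17 in normoxia KO and 1.44 ± 0.17 in hypoxia flox. Espl1, separase, which cuts the ring holding sister chromatids, was likewise alike (-0.10 ± 0.17) and raised in both, by 2.39 ± 0.19 and 2.49 ± 0.20. The same held for Uhrf1, which maintains DNA methylation through replication (-0.06 ± 0.12, raised by 1.72 ± 0.13 and 1.77 ± 0.14).
Of 22 DNA replication genes, 6 were lower, none was higher (27.3% called, against 18.9% of all genes) and 3 were alike, with a median of -0.39. Rrm2, the ribonucleotide reductase subunit of S phase, was at 6.62, 3.95, 3.95, 4.99 and 6.03 CPM against 17.6, 15.6, 11.9 and 10.2 CPM (-1.44 ± 0.37, adjusted p = 0.0134), and the nucleotide synthesis gene Tk1 (-0.95 ± 0.21) and the helicase subunit gene Mcm7 (-0.50 ± 0.12) were lower too. Among libraries of 1 sex pattern none of these 6 calls was kept, when 1333 genes were called in all. Among those low in immediate early genes 3 members were called, all lower, when 1790 genes were called in all.

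**Figure D3:**
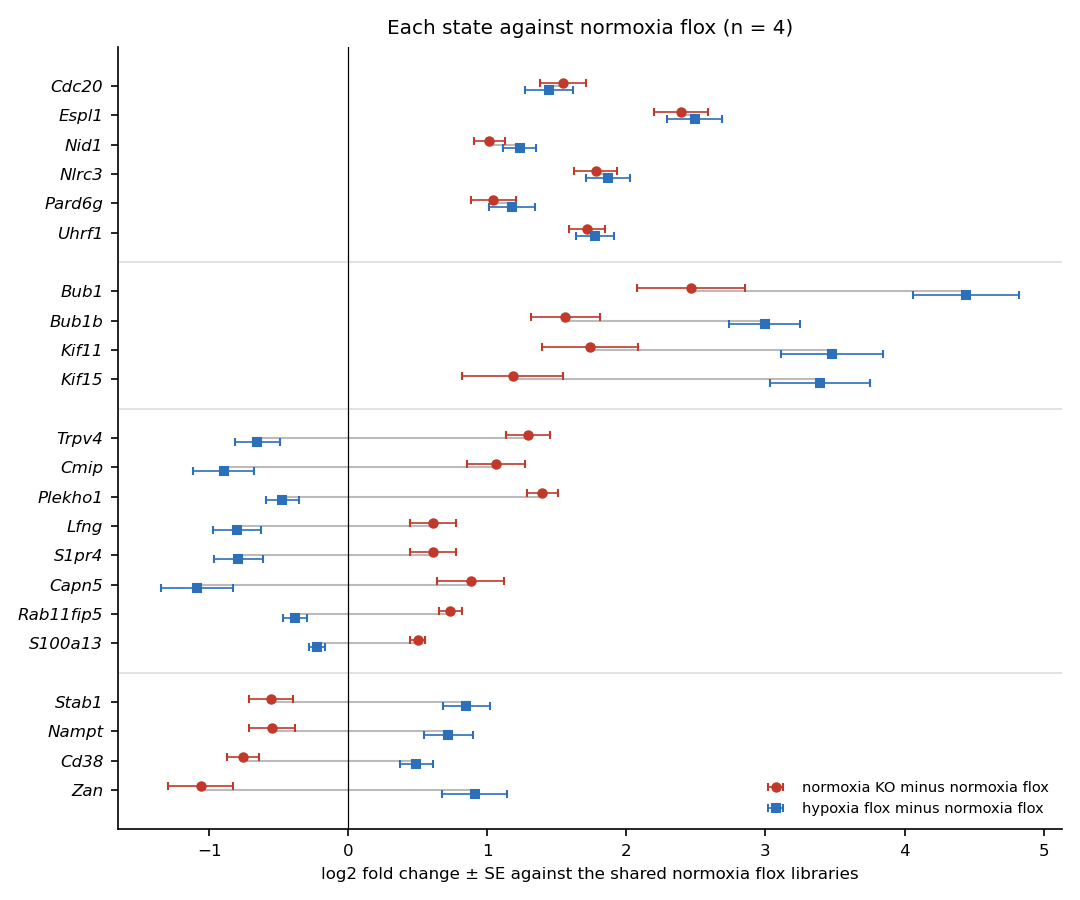
For each gene, the red circle is normoxia KO minus normoxia flox and the blue square hypoxia flox minus normoxia flox, as log2 fold change ± SE on the x axis, and the 4 normoxia flox libraries serve both. The top block shows genes alike in both states, such as Cdc20 and Nid1, the second block mitotic genes with the higher value in hypoxia, and the lower blocks genes with opposite signs.

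Of 21 arterial endothelial genes, 6 were lower in normoxia KO than in hypoxia flox, none was higher, 15 were not called and 2 were alike, with a median of -0.35. The called share was 28.6%, against 18.9% of all genes. Hey1, a Notch target in arteries, stood at 35.4, 32.1, 27.8, 24.9 and 24 CPM in normoxia KO and 103, 84.7, 96.5 and 66 CPM in hypoxia flox, without overlap (-1.6 ± 0.22, adjusted p = 8.84e-05). Efnb2, the arterial ephrin, was lower (-1.59 ± 0.26, adjusted p = 0.000497), as were Gja5, an arterial connexin (-1.47 ± 0.28, adjusted p = 0.00161), and Gkn3, an arterial marker of mouse brain (-2.55 ± 0.48, adjusted p = 0.00159). Sema3g, a semaphorin of arterial endothelium, was lower than normoxia flox in both states (-1.26 ± 0.21 and -0.89 ± 0.22), and the states did not differ detectably (-0.37 ± 0.21, adjusted p = 0.223).

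Of 12 smooth muscle markers, 9 were lower, 1 was higher and none was alike, with a median of -1.30. The called share was 83.3%, against 18.9% of all genes. The higher one was Cald1, caldesmon, except without hypoxia flox 5 (adjusted p = 0.0553). Pln also stood higher but was not called. Before TMM scaling it was at 7.11 to 11.6 CPM in normoxia KO and 2.25 to 4.11 CPM in hypoxia flox. Acta2, smooth muscle actin, was at 42, 36, 48.8, 46.9 and 52.2 CPM in normoxia KO and 172, 188, 181 and 96.1 CPM in hypoxia flox. Hypoxia flox 5 lay far below the other hypoxia flox libraries but above every KO library, and the difference was -1.82 ± 0.23 (adjusted p = 4.3e-05), or -2.01 ± 0.21 without it. Myh11, smooth muscle myosin, showed the same single low library (55.5, 58, 46.2, 59.1 and 65.3 CPM against 246, 247, 235 and 118 CPM, -1.9 ± 0.29, adjusted p = 0.000331). Of 13 pericyte markers, 3 were higher, none was lower and 10 were not called (23.1% called, against 18.9% of all genes). Kcnj8 and Abcc9, the subunits of a potassium channel of pericytes, were higher by 3.17 ± 0.46 and 2.6 ± 0.56 (adjusted p = 0.000187 and 0.00419). The summed level of the 13 pericyte markers was 892 to 1589 CPM in normoxia KO and 340 to 1332 CPM in hypoxia flox, low in hypoxia flox 4 and 5, and the defining marker Pdgfrb did not pass (0.74 ± 0.37). How far the makeup of the preparations bears on the arterial, contractile and channel genes was not tested.

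**Figure D4:**
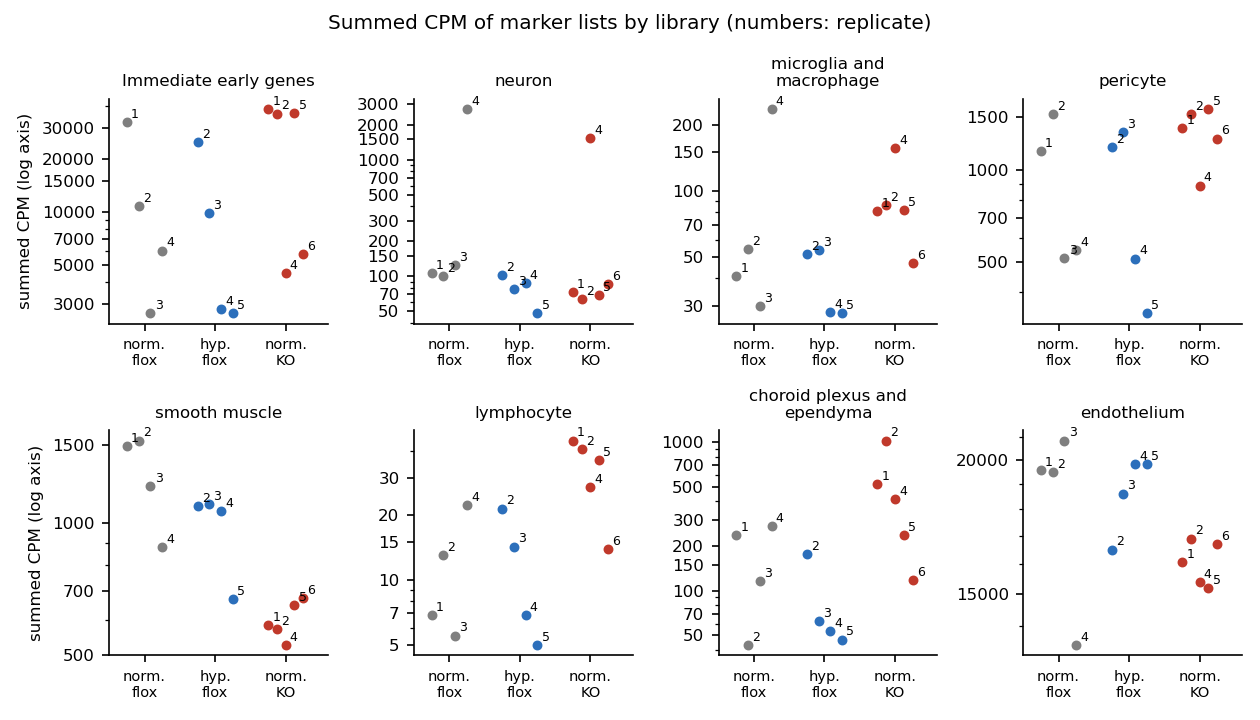
Points are the summed CPM of each list in 1 library on a log axis, by group, with the replicate number beside each point. Normoxia KO 4 and normoxia flox 4 stand out for neuron markers, normoxia KO 1, 2 and 5 and hypoxia flox 2 for immediate early genes, and all KO libraries lie below hypoxia flox 2 to 4 for smooth muscle markers.

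Barrier genes went both ways. Of 24 transporters of the blood-brain barrier, 2 were higher and 5 were lower (29.2% called, against 18.9% of all genes). Of the 24, 9 were alike (against 31.5% of all genes). Slc22a8, an organic anion transporter, was at 277, 274, 273, 213 and 267 CPM in normoxia KO and 547, 775, 887 and 981 CPM in hypoxia flox, without overlap (-1.61 ± 0.23, adjusted p = 0.000161). Mfsd2a, which carries omega-3 lipids, was also lower (-0.60 ± 0.17, adjusted p = 0.021, and -0.48 ± 0.18 with adjusted p = 0.0862 without hypoxia flox 4). The efflux pump gene Abcc1 was higher by 0.53 ± 0.11 (adjusted p = 0.00348). Slc16a1, which moves lactate and ketone bodies, was raised in both states, by 0.92 ± 0.17 and 0.94 ± 0.18, and was alike between them (-0.02 ± 0.17).
Of 22 genes of the Wnt and beta-catenin program that maintains the barrier, 8 were lower and 1 was higher (40.9% called, against 18.9% of all genes). Of the 22, 7 were alike (against 31.5% of all genes), and the list median was -0.29. Ppard, a nuclear receptor gene, stood at 83.4, 81.1, 77.8, 74.4 and 79.9 CPM in normoxia KO and 138, 167, 169 and 199.9 CPM in hypoxia flox (-1.09 ± 0.14, adjusted p = 4.59e-05). Apcdd1, a Wnt inhibitor induced by the pathway, was lower (-0.88 ± 0.17, adjusted p = 0.00158) and so was Lef1, its nuclear effector (-0.64 ± 0.15, adjusted p = 0.00619). Rnf43, a ligase that removes Frizzled receptors, was the member that was higher (1.76 ± 0.37, adjusted p = 0.00318). With libraries of 1 sex pattern only, 1 of the 22 was called lower and 1 higher, when 1333 genes were called in all.
Of 18 endothelial junction genes 10 were alike, against 31.5% of all genes, with 4 higher and 1 lower (27.8% called, against 18.9%). Their differences ran from -0.49 to 1.99. The median of the list was 0.03, and -0.11 on deposited RPKM values. Cldn5, the main tight junction claudin of brain endothelium, was at 1816, 1743, 2407, 1679 and 2107 CPM against 1440.2, 1795, 1712 and 1738 CPM, with overlap and a 95% interval of -0.04 to 0.48. Among 9 genes of caveolae and fenestrae, 5 were higher and none was lower (55.6% called, against 18.9% of all genes). Pacsin2, a membrane-bending protein of caveolae, was higher by 0.62 ± 0.06 (adjusted p = 8.61e-06). Plvap, the diaphragm protein of leaky capillaries, was higher by 2.33 ± 0.70 (adjusted p = 0.0289), but by 2.12 ± 0.71 without normoxia KO 4 (adjusted p = 0.0537). The call was also lost without any 1 of normoxia KO 6 and hypoxia flox 3, 4 and 5 (adjusted p up to 0.0896).

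**Figure D5:**
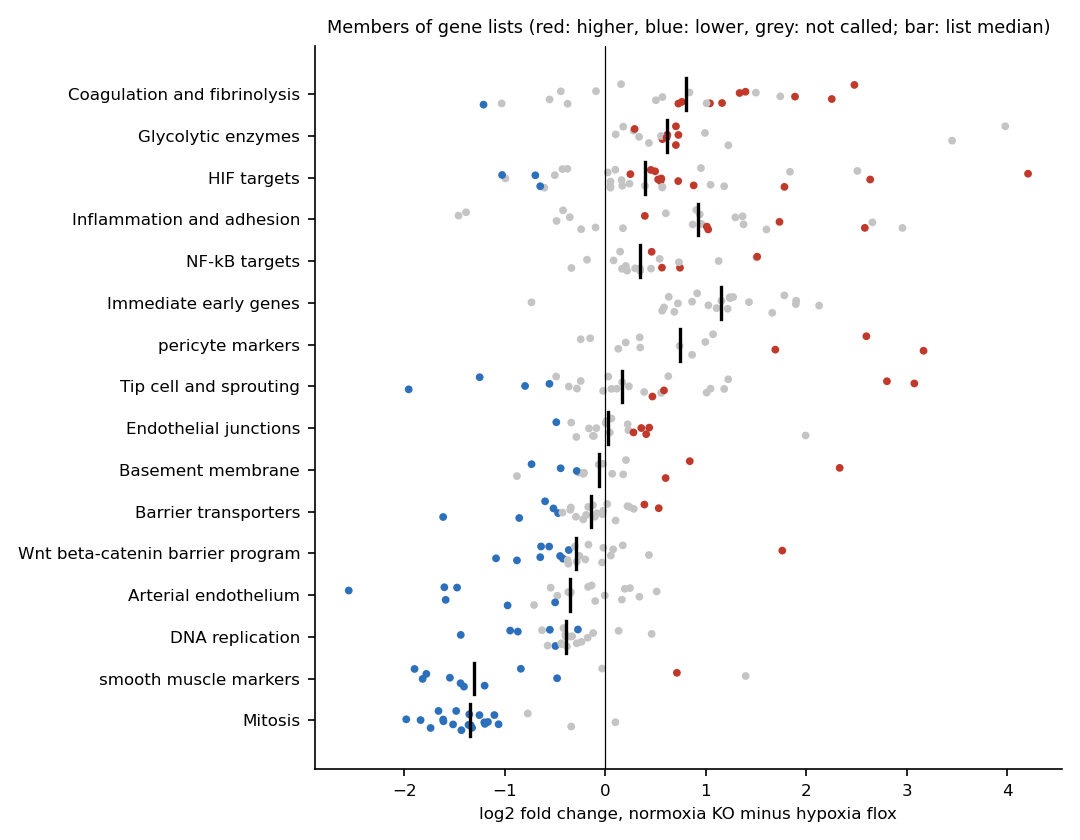
Each point is 1 member of a gene list, with its log2 fold change, normoxia KO minus hypoxia flox, on the x axis (red called higher, blue called lower, grey not called) and the list median as a black bar. The medians of coagulation (0.80) and glycolysis (0.61) lie to the right of 0 and those of mitosis (-1.35) and smooth muscle markers (-1.30) to the left. Those of junction and basement membrane genes lie near 0. Gas6 (-1.21) lies to the left among coagulation genes, and Cald1 and Pln lie to the right among smooth muscle markers.

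Angiogenic genes fell into shared and separate parts. Of 25 tip cell and sprouting genes, 4 were higher and 4 were lower (32% called, against 18.9% of all genes). Of the 25, 5 were alike (against 31.5% of all genes). Apln, the tip cell peptide apelin, was at 722, 673, 515, 602 and 554 CPM in normoxia KO and 418, 258, 273 and 238 CPM in hypoxia flox, against 32.2, 18.5, 22.9 and 146 CPM in normoxia flox. Both states lay far above control, by 3.48 ± 0.53 and 2.43 ± 0.52, and between them the libraries did not overlap, although the difference of 1.05 ± 0.47 did not pass (adjusted p = 0.138). In a fit of the 9 libraries alone it passed (1.04 ± 0.18, adjusted p = 0.00396). Angpt2, which loosens vessel walls, was raised by 2.41 ± 0.23 in normoxia KO and 1.86 ± 0.23 in hypoxia flox, and the direct difference was 0.56 ± 0.22 (adjusted p = 0.0832), or 0.71 ± 0.22 without hypoxia flox 2 (adjusted p = 0.0396). Angpt1, the stabilising ligand of the same receptor, stood at 30.9, 25.2, 25.1, 31.2 and 43.5 CPM in normoxia KO and 3.86, 4.97, 5.1 and 3.97 CPM in hypoxia flox, without overlap (2.8 ± 0.34, adjusted p = 3.09e-05). Ramp3, the partner of the adrenomedullin receptor, was at 82.5, 75.9, 104, 88.6 and 100.5 CPM against 13.4, 9.08, 11.8 and 8.47 CPM (3.07 ± 0.40, adjusted p = 7.93e-05). Among receptors, Unc5b, which binds netrins (-1.25 ± 0.15, adjusted p = 3.57e-05), Nrp1, a VEGF co-receptor (-0.80 ± 0.20, adjusted p = 0.00972), and Flt1, a VEGF receptor (-0.56 ± 0.13, adjusted p = 0.00838), were lower.
Among 24 BMP and TGF-beta genes, 4 were higher and 3 were lower (29.2% called, against 18.9% of all genes). Of the 24, 6 were alike (against 31.5% of all genes). The ligand gene Bmp2 was at 105, 118, 101, 165 and 155 CPM in normoxia KO and 12.5, 5.88, 6.49 and 2.64 CPM in hypoxia flox. The groups lay far apart, and the difference was 4.22 ± 0.49 (adjusted p = 2.99e-05). Bmp6, another ligand, was higher by 1.57 ± 0.25 (adjusted p = 0.000341), and had fallen under hypoxia (-1.1 ± 0.25, adjusted p = 0.0226). Tgfb2, a TGF-beta ligand, was lower (-1.07 ± 0.14, adjusted p = 8.84e-05) and so was Smad6, an inhibitor of BMP signalling (-0.69 ± 0.14, adjusted p = 0.00226).

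Several basement membrane genes were raised in both states and alike between them. Of 15, 7 were alike (against 31.5% of all genes), 3 were higher and 3 were lower (40% called, against 18.9%). Nid1, nidogen, which links laminin to collagen, was at 292, 308, 255, 296 and 305 CPM in normoxia KO, 377, 334, 327 and 315 CPM in hypoxia flox and 144, 129.9, 156 and 146 CPM in normoxia flox. Both states lay above every control library. Every KO library was below every hypoxia flox library, but the difference was -0.22 ± 0.11 (95% interval -0.45 to 0.01), inside the margin. Lamc1, a laminin chain, was alike (0.07 ± 0.08) and raised by 0.76 ± 0.08 and 0.69 ± 0.09, and Hspg2, perlecan, was alike (0.21 ± 0.13) and raised by 0.83 ± 0.13 and 0.62 ± 0.14. Sparc, a matrix-binding protein, was alike (-0.02 ± 0.12) with rises of 0.58 ± 0.12 and 0.61 ± 0.13. The collagen IV genes Col4a1 and Col4a2 were alike (-0.26 ± 0.09 and -0.28 ± 0.09), each raised in both states. Col4a2 was also called lower (adjusted p = 0.0414), a call lost without any 1 of normoxia KO 1, 2 and 5 and hypoxia flox 2, 3 and 5 (adjusted p up to 0.101), and Col4a1 passed without normoxia KO 4 (-0.32 ± 0.09, adjusted p = 0.0277) or 6 (adjusted p = 0.0363).
Fn1, fibronectin, was at 10719, 11130.4, 11869.5, 11023 and 14049 CPM against 6310.4, 6438, 6575 and 6943 CPM, without overlap, and was higher by 0.84 ± 0.13 (adjusted p = 0.000306). Lama5, a laminin chain, was higher by 0.60 ± 0.12 (adjusted p = 0.00241) and Agrn, agrin, lower (-0.73 ± 0.15, adjusted p = 0.003). A further rule took transcripts at least 2-fold changed in both states and alike between them. It left out provisional gene models, pseudogenes, Xist, Tsix and Y-linked genes, and genes with mean log2 CPM below 1. Within these limits it named 6 genes, all raised: Cdc20, Espl1, Uhrf1, Nid1, the NOD-like receptor gene Nlrc3 and the polarity gene Pard6g. Nlrc3 was at 26.9, 27.7, 22.2, 25.6 and 35.6 CPM in normoxia KO, 27.9, 29.4, 32.1 and 27.9 CPM in hypoxia flox and 6.42, 7.22, 9.77 and 8.72 CPM in normoxia flox. The states overlapped (-0.09 ± 0.14) and both lay above all 4 controls. Within the same limits of symbol and level, no gene that fell in both states met that rule.

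Among genes other than provisional gene models, pseudogenes, Xist, Tsix and Y-linked genes and with mean log2 CPM of at least 1, 10 rose with Pdcd10 loss and fell with hypoxia and 4 did the reverse, each passing the test in both comparisons and in the direct one. The naming rule took 8 of the 10: Trpv4, Cmip, Plekho1, Lfng, S1pr4, Capn5, Rab11fip5 and S100a13. Trpv4, a mechanosensitive calcium channel, was at 264, 247, 286, 279.8 and 302 CPM in normoxia KO, 82.6, 65, 92.2 and 46.8 CPM in hypoxia flox and 105, 118, 114 and 114 CPM in normoxia flox. Control libraries lay between the states, with changes of 1.29 ± 0.16 (adjusted p = 2.99e-05) and -0.65 ± 0.16 (adjusted p = 0.039). Lfng, a glycosyltransferase that modifies Notch, changed by 0.61 ± 0.16 and -0.80 ± 0.17, and S1pr4, a sphingosine 1-phosphate receptor gene, by 0.61 ± 0.17 and -0.79 ± 0.18. The protease gene Capn5 changed by 0.88 ± 0.24 and -1.09 ± 0.26.
Of the 4 genes that fell with Pdcd10 loss and rose with hypoxia, Stab1, a scavenger receptor of endothelium, was at 116, 111, 144, 110.2 and 141 CPM against 249, 338, 340.4 and 388 CPM (-1.4 ± 0.16, adjusted p = 1.65e-05), with changes of -0.55 ± 0.16 and 0.85 ± 0.17 against normoxia flox. Both enzyme genes of NAD turnover in this group, Nampt, which makes NAD from nicotinamide, and Cd38, which consumes NAD, were lower (-1.27 ± 0.17 and -1.25 ± 0.11, adjusted p = 7.23e-05 and 2.83e-06). Zan, zonadhesin, was the fourth (-1.97 ± 0.23).

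Inflammatory genes were higher where they were called. Of 24 genes of inflammation and leukocyte adhesion, 5 were higher and none was lower or alike, with a median of 0.92. The called share was 20.8%, close to the 18.9% of all genes. Among libraries low in immediate early genes, 3 were called, all higher, when 1790 genes were called in all, and the median was 0.24. Of 13 microglia and macrophage markers, Lyz2 was higher and none was lower (7.69% called, against 18.9% of all genes). For 5 of the 13 the groups did not overlap, against 20.7% of all genes. The median of these markers was 2.35, or 0.60 without normoxia KO 4. Their summed level was 46.8 to 155.7 CPM in normoxia KO, highest in normoxia KO 4, and 27.7 to 53.9 CPM in hypoxia flox. The microglial marker P2ry12 was at 13.1 CPM in normoxia KO 4 and below 1 CPM in the other 8 libraries. The part of other cells in the inflammatory genes was not tested. Tlr4, the receptor for lipopolysaccharide that is linked to malformation growth, was at 28.4, 31.8, 19.5, 25.6 and 33 CPM in normoxia KO and 16, 11.6, 14.5 and 12.8 CPM in hypoxia flox, without overlap (1.01 ± 0.14, adjusted p = 9.16e-05). Tlr2, a receptor for bacterial lipoproteins, was higher by 1.73 ± 0.28 (adjusted p = 0.000451). Cx3cl1, the chemokine fractalkine, was higher by 1.02 ± 0.28 (adjusted p = 0.0164), and without hypoxia flox 5 by 0.92 ± 0.30 (adjusted p = 0.0596). Icam1, a leukocyte adhesion gene, ranged from 114 to 1019 CPM within normoxia KO and from 90.7 to 1107 CPM within hypoxia flox, and the difference of 0.60 ± 0.90 did not pass (adjusted p = 0.661). Its high libraries were those high in immediate early genes. Vcam1, another adhesion gene, did not pass (0.91 ± 0.35, adjusted p = 0.0805). It passed without hypoxia flox 2, the highest of its group (1.29 ± 0.34, adjusted p = 0.018). Leaving out normoxia KO 4 gave 1.05 ± 0.34 for Vcam1 (adjusted p = 0.0432). Adamts4, a protease that cleaves matrix proteoglycans, did not pass (0.55 ± 0.66, adjusted p = 0.581).
Of 19 NF-kB targets, 4 were higher, none was lower and 4 were alike, a called share of 21.1%, near the 18.9% of all genes. Traf1, a signalling adaptor, was at 24.8, 22.1, 34.8, 28.2 and 40.1 CPM against 10.4, 9.53, 11 and 11.2 CPM (1.51 ± 0.18, adjusted p = 2.55e-05), and Nfkbie, an inhibitor of NF-kB, was higher by 0.74 ± 0.18 (adjusted p = 0.00769).

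The naming rule also took the 12 highest and 12 lowest genes. Ctnnd2, delta-catenin, stood at 69.96, 63.3, 79.9, 72.8 and 82.1 CPM in normoxia KO and 1.84, 1.51, 1.58 and 0.784 CPM in hypoxia flox (5.67 ± 0.95, adjusted p = 0.000693), against 2.35, 2.11, 2.52 and 53.5 CPM in normoxia flox. Gpr35, a G protein-coupled receptor, was at 19.9, 18.7, 21.1, 22.6 and 28.8 CPM against 1.51, 0.502, 0.446 and 0.147 CPM (5.04 ± 0.51, adjusted p = 7.56e-06), and normoxia flox had 0.522, 0.422, 0.304 and 1.96 CPM. Both genes were low in hypoxia flox and high in all 5 KO libraries. Efemp1, fibulin-3, was higher by 5.29 ± 0.90, Wnt9b, a Wnt ligand, by 4.39 ± 0.63, and Pde9a, a phosphodiesterase for cyclic GMP, by 3.98 ± 0.47. Serpina1b, an alpha-1-antitrypsin gene with near-identical copies, was higher by 5.62 ± 0.92, a value that read sharing between copies makes less certain. Hpcal4, a neuronal calcium sensor, reached 95.8 CPM in normoxia KO 4 and 16.1 to 24.99 CPM in the other KO libraries. Its difference of 4.23 ± 1.23 passed (adjusted p = 0.025) but was 3.37 ± 1.15 without normoxia KO 4 (adjusted p = 0.0553), and the call was also lost without any 1 of hypoxia flox 3, 4 and 5 (adjusted p up to 0.0765).
At the other end, Itih5, a hyaluronan-binding inhibitor family member, was at 264, 214, 168, 201 and 214 CPM in normoxia KO and 930.2, 1157, 1213 and 1389 CPM in hypoxia flox (-2.47 ± 0.25, adjusted p = 5.86e-06). The groups did not overlap. Scube2, a secreted signalling protein, was lower (-2.99 ± 0.24), as was Adh1, an alcohol dehydrogenase (-2.98 ± 0.32). Wnt5a, a Wnt ligand, was at 14.5, 14.7, 15.1, 12.2 and 15.8 CPM against 61.2, 64.9, 75.9 and 102 CPM (-2.4 ± 0.19, adjusted p = 7.57e-07). Scube2 and Wnt5a fell with Pdcd10 loss (-2.8 ± 0.24 and -2.22 ± 0.19) and stood at 0.19 ± 0.23 and 0.17 ± 0.20 under hypoxia, which did not pass. Adh1 fell with Pdcd10 loss (-1.88 ± 0.31), and its hypoxia value of 1.1 ± 0.32 did not pass (adjusted p = 0.0855).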

How the data were processed

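RNA from brain endothelial preparations was sequenced in 18 libraries. Per the submitters' processing notes the authors used HISAT2, edgeR and GRCm39; versions, read counting and strand setting are not given in the sources used here, so overlapping and antisense genes cannot be told apart. The deposited count table holds raw read counts per Ensembl gene, and the deposited RPKM table holds the authors' values per kilobase of gene and 1000000 reads. Counts of all 18 libraries were fitted in 1 edgeR 4.0.16 quasi-likelihood model (R 4.3.3, TMM scaling, filterByExpr, 17531 of 57010 genes tested), with Benjamini-Hochberg adjustment and a threshold of 0.05. CPM values were scaled by TMM library sizes. Of the IDs, 91.3% had a symbol, and genes without one held 0.723% of counts. DESeq2 1.42.0, limma 3.58.1 on log2(RPKM + 0.1) and other settings were alternatives. The fit was tested on simulated data. It called 5.97% of genes with a log2 change of 0.5, 52.2% of those with 1 and 93.9% of those with 2, and 0.0346% of unchanged genes. Many small changes would therefore not pass.

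The members and gene lists were chosen with earlier results of these data known. Named genes were a fixed set of 14, the 12 highest and 12 lowest called genes without overlap and with mean log2 CPM of at least 1, up to 4 called members of each list by adjusted p, and up to 8 genes per class that were alike in both states (at least 2-fold from control) or opposed. Further list members were named after their values were seen, and some genes that the rule takes are not reported here. Samples were grouped by their labels.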

Additional observations from a re-analysis of the deposited data

Results flagged for a closer look

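A library was singled out when its gap to the nearest other library of its group was a large part of the group's whole range. This held for 16 of 312 groups tested (5.13%), and chance flags about 1 in 20. Shares of the range are given after each gene.

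Hypoxia flox 5 was the lowest of its group for the smooth muscle genes Acta2 (0.863), Myh11 (0.93), Mylk (0.85) and Tpm2 (0.854). Its Myh11 level was 118 CPM, against 235 to 247 CPM in the other 3 libraries. Hypoxia flox 2, high in immediate early genes, was the highest of its group for the adhesion gene Vcam1 (0.868), the NF-kB inhibitor Nfkbie (0.86) and the complement regulator Cd55 (0.858). Hypoxia flox 4 was the lowest for Prcp, a carboxypeptidase gene (0.836).

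Normoxia KO 4, with neural RNA and both Xist and Ddx3y, was the lowest of its group for Heg1 (0.805), Mylk (0.753) and Epas1 (0.726) and the highest for the glycolytic genes Tpi1 (0.757) and Ldha (0.741) and the neuronal gene Hpcal4 (0.755). Its Heg1 level was 1350.0 CPM, still above every hypoxia flox library. Normoxia KO 5 was the lowest for the transporter Slc22a8 (0.857). Normoxia KO 6 was the highest for F5 (0.86), at 1237 CPM against 859 to 904 CPM in the other 4.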

How the results depend on the processing

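Of the 156 named genes 132 were called, 82 of them in every alternative and 113 in every planned one. Over the runs that left out 1 library, 2301 to 3088 genes were called, 1107 to 1483 higher, 1155 to 1753 lower and 4928 to 5845 alike. In a pair of settings chosen after the data were seen, libraries of 1 sex pattern gave 1333 calls (804 higher, 529 lower), with 1201 main calls kept (36.2%), and libraries low in immediate early genes gave 1790 (866 higher, 924 lower), with 1528 kept (46.1%) and 3162 genes alike. limma on RPKM called 952 genes higher. A margin of 0.3 left 1831 genes alike and a margin of 1 left 10427.
Icam1 turned to -0.51 ± 0.15 when the fit held a term for immediate early genes (adjusted p = 0.0223). Against normoxia flox, Hpcal4 in normoxia KO was -0.10 in all libraries, 1.92 with a marker component as a covariate, 3.37 without normoxia flox 4 and -0.96 without normoxia KO 4. Egln3 under hypoxia ranged from -0.39 to 1.27 over the runs without 1 library. The cause was not tested.
Replicate numbers 2, 4 and 5 occur in both groups, and deviations of same-numbered libraries correlated at 0.313, -0.0628 and -0.464. Normoxia KO 6 and hypoxia flox 4, numbered differently, correlated at 0.767. These values cannot settle whether the numbers pair the samples, and the main fit did not pair them. With the replicate block 2536 genes were called. At this depth and number of libraries, 9016 genes were neither called nor shown to be alike.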

Other observations

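Among 15 genes of nitric oxide, endothelin and prostaglandin synthesis, 3 were higher in normoxia KO and 1 was lower (26.7% called, against 18.9% of all genes). Ptgs1, cyclooxygenase 1, was higher by 3.61 ± 0.66 (edgeR adjusted p = 0.00136) and Ptgis, prostacyclin synthase, by 1.43 ± 0.35 (adjusted p = 0.00868), while Ace, the angiotensin-converting enzyme, was lower (-1.61 ± 0.23, adjusted p = 0.000157). Of 14 complement genes, the membrane regulator Cd55 was higher by 3.44 ± 0.32 (adjusted p = 4e-06), and 3 were lower, Cfi and Cd46 among them. The called share was 28.6%, against 18.9% of all genes.

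Among 13 NRF2 targets, 5 were higher and 1 was lower (46.2% called, against 18.9% of all genes). Nqo1, a quinone reductase, was higher by 1.41 ± 0.19 (adjusted p = 9.45e-05) and Gclm, of glutathione synthesis, lower (-0.30 ± 0.09, adjusted p = 0.0368). Of 23 interferon-stimulated genes, 5 were higher, none was lower and 8 were alike, a called share of 21.7%, near the 18.9% of all genes, of which 31.5% were alike. Isg15 was higher by 0.58 ± 0.13 (adjusted p = 0.00694), and Mx1 did not pass (-0.65 ± 0.33). Of 7 class II MHC genes, H2-Aa was called (14.3%, against 18.9% of all genes), higher by 2.16 ± 0.70 (adjusted p = 0.043). That call was lost without any 1 of normoxia KO 1, 2 and 5 and hypoxia flox 2 to 5 (adjusted p up to 0.125). Of 14 lymphocyte markers 2 were higher and none was lower (14.3% called, against 18.9% of all genes). Cd2, 1 of these 2, was higher by 1.89 ± 0.37 (adjusted p = 0.00208). Its levels were low, before TMM scaling 1.72 to 2.28 CPM in normoxia KO and 0.16 to 0.94 CPM in hypoxia flox. Choroid plexus markers were higher for 5 of 8 (62.5% called, against 18.9% of all genes), among them Folr1 and Clic6. Ttr lost its call without any 1 of normoxia KO 1, 2, 4 and 5 and hypoxia flox 3 to 5 (adjusted p up to 0.125). How far other cells in the preparations bear on these genes was not tested.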
